A study of Mus musculus with 2 samples.

Results

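The 10 genes of the inhibin and activin system described here encode the subunits Inha, Inhba and Inhbb, the binding protein Fst, the inhibin co-receptor Tgfbr3, the type I receptors Acvr1, Acvr1b and Acvr1c and the type II receptors Acvr2a and Acvr2b. They were picked by gene symbol, as the kallisto identifiers give it, and joined to the RSEM rows on the gene identifier; all 10 were present among the 22015 nuclear protein-coding genes of the annotation, with 34 annotated transcripts. Total RNA of adrenal glands from 14-day-old male B6CASTF1/J mice, the first-generation hybrid of C57BL/6J and CAST/EiJ, was sequenced in 2 libraries that the labels call biological replicates 1 and 2. No animal carried a further allele or treatment that the labels name, and there was no second group, so the values describe levels and the spread between the libraries, with no test of a condition. The labels give the libraries the same pool number in one field and different numbers in another, and 1 donor record, so the spread between them may be technical and may not span separate animals.

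Activins are dimers of beta subunits, and inhibins pair a beta subunit with the alpha subunit. Activins bind a type II receptor, which recruits and activates a type I receptor that phosphorylates Smad2 and Smad3, whereas inhibins occupy the type II receptors together with betaglycan and so block activin. In the mouse adrenal cortex, Inha is known as a gene of steroid-producing cells whose loss permits cortical tumours after removal of the gonads.

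The libraries held 32963248 expected counts in replicate 1 and 36260745 in replicate 2, of which the 10 genes took 13070 and 13620. Levels are given as TPM, a unit that corrects for transcript length and library depth. Nuclear protein-coding genes held 27.4% of all TPM in replicate 1 and 27.8% in replicate 2. The 1 TPM level used below is thus set on a total that is mostly other RNA. All 5 cortical markers were present, with Nr5a1 at 99.1 TPM in replicate 1, with 112.4 TPM in replicate 2, as were all 4 chromaffin markers, with Th at 133.1 and 130.9 TPM, and none of the 3 kidney markers reached 1 TPM. Markers of tissues outside the gland were also present and uneven: the 4 hepatocyte markers summed to 235.6 TPM in replicate 1, with 4138 TPM in replicate 2, and the 4 lymphocyte markers to 32.7 and 4.75 TPM. In such bulk tissue fewer cells of a type and less RNA per cell cannot be told apart.

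The alpha subunit and betaglycan stood above every other gene of the group, and the activin beta subunits lay at the bottom. At least 1 TPM in both libraries was found for 8 of the 10 genes, beside 54.2% of all nuclear protein-coding genes. The 2 below that level were Inhba and Inhbb. Tgfbr3 and Inha together made up 64.7% of the TPM of the 10 genes in replicate 1 and 59.9% in replicate 2. The median over the 10 genes, detected or not, was 6.51 TPM, against 2.045 TPM over all nuclear protein-coding genes. Over the detected protein-coding genes alone it was 8.88 TPM.

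**Figure D1:**
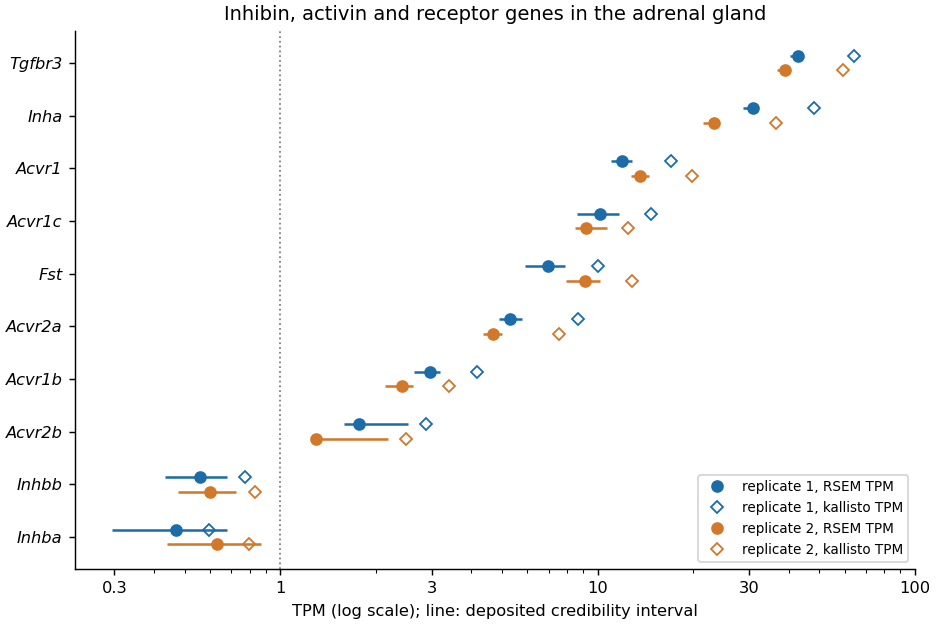
Level of each of the 10 genes in both libraries, as TPM on a log axis. Filled circles are RSEM values with the deposited credibility intervals as lines, open diamonds are kallisto values, and the dotted line marks 1 TPM. Tgfbr3 and Inha lie above 20 TPM in both libraries, and Inhba and Inhbb lie below 1 TPM by either quantification.

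Inha, the subunit that makes a dimer an inhibin, stood at 30.8 TPM in replicate 1, with 23.2 TPM in replicate 2, or 27.0 ± 5.37 TPM (SD, n = 2). It ranked 1949 of 22015 genes by mean TPM. The gene lies on chromosome 1 of mm10 from 75507077 to 75510366 on the plus strand and has a single transcript of 2 exons, so its 1392 and 1137 expected counts needed no division among isoforms. None of its 31-base words occurs in a transcript of another gene. Replicate 1 was the higher library by 1.33-fold, with a 95% exact binomial interval of 1.23 to 1.44 that covers counting error only. The deposited credibility intervals, 28.6 to 31.8 TPM in replicate 1 and 21.5 to 24.1 TPM in replicate 2, did not overlap. Relative to Nr5a1, the factor that drives steroidogenic genes, the Inha level was 0.311 in replicate 1 and 0.206 in replicate 2. Inha is also a gene of the testis, and of 4 testis markers only Insl3 reached 1 TPM, at 2.62 and 2.15 TPM, while Fshr had 0 counts.

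Inhba, the beta A subunit of activin A and inhibin A, was at 0.470 TPM in replicate 1, with 0.630 TPM in replicate 2, from 52 and 90 expected counts. Inhbb, the beta B subunit of activin B and inhibin B, was at 0.560 and 0.600 TPM, from 76 and 89 expected counts. The beta subunits did not differ from each other beyond their spread: the log2 ratio of Inhbb to Inhba was 0.25 in replicate 1 and -0.070 in replicate 2. Their order thus turned between the libraries in the RSEM values. By kallisto Inhbb was the higher in both, with log2 ratios of 0.37 and 0.060, and the ranges of the pair overlapped by either quantification. Inhba lies on chromosome 13 from 16011851 to 16031621 on the plus strand, and Inhbb on chromosome 1 from 119415465 to 119422248 on the minus strand. The 2 transcripts of Inhba share 1 coding sequence and differ outside it, so their division does not bear on the protein sequence. It does bear on the Inhba TPM, because Inhba-202 has 1529 bases and Inhba-201 has 6390. Inhba-202 has no 31-base word of its own and took 60.4% and 47.6% of Inhba TPM in the RSEM values. By kallisto it took 27.4% and 20.7%. The comparison of Inhbb with Inhba thus rests in part on that division. Alpha exceeded the summed beta subunits 23.7-fold, at a mean log2 ratio of 4.57 ± 0.47 (SD, n = 2), with 30.8 TPM over 1.03 TPM in replicate 1 and 23.2 TPM over 1.23 TPM in replicate 2. These are transcript levels, and the subunits' protein was not measured.

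Fst encodes follistatin, a secreted protein that wraps around activin and keeps it from its receptors. It was at 6.95 TPM in replicate 1, with 9.10 TPM in replicate 2, or 8.03 ± 1.52 TPM (SD, n = 2), with 379 and 582 expected counts. Follistatin transcripts exceeded those of the summed beta subunits by a log2 ratio of 2.82 ± 0.09, or 7.07-fold. That ratio uses all Fst transcripts, and RSEM put 22.5% and 19.1% of Fst TPM on those with no coding sequence. The main coding transcripts were Fst-202, at 2.67 and 4.03 TPM, and Fst-205, at 2.49 and 2.61 TPM. The summed beta subunits were at 1.03 and 1.23 TPM, each of them below 1 TPM. By counts Fst was 0.706 times as high in replicate 1 as in replicate 2, with a counting interval of 0.619 to 0.805. The gene lies on chromosome 13 from 114452290 to 114458951 on the minus strand, and it has 6 transcripts, of which 3 carry a complete coding sequence.

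Those coding sequences fall into a short form of 317 codons, in Fst-202, and a long form of 344 codons, in Fst-201. The forms are known to differ in where the protein acts: the short one binds heparan sulphate at cell surfaces, and the long one, with an acidic tail, circulates. Their coding ends are shown from the GENCODE M21 transcripts, with the bases after their last shared one in capitals. The printed stretches end at the stop codons and lie on the minus strand of chromosome 13 between 114453423 and 114454303. Both hold intron between their blocks, and that of Fst-202 lies within 114453804 to 114454303.
Fst-202: tgaagcattctggatcttgcaactGA
Fst-201: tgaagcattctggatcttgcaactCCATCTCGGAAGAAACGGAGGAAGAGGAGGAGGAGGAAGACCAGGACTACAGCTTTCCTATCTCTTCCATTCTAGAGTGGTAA
The long end adds 27 codons, of which 10 are GAA or GAG, the glutamate codons, 7 of them in an unbroken run. Another transcript, Fst-205, has the same long end but lacks 3 bases upstream, shown in capitals in the first of the next lines.
Fst-201: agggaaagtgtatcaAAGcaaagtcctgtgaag
Fst-205: agggaaagtgtatcacaaagtcctgtgaag

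Both follistatin forms were present. By kallisto TPM the long form led in both libraries. In the RSEM TPM the forms were nearly level in replicate 1 and the short form led in replicate 2. TPM divides by length, and Fst-205 has 1113 bases against 2833 for Fst-202. In RSEM expected counts Fst-202 held 240.0 and 392.3, against 83.0 and 94.3 for Fst-205 and 12.9 and 28.1 for Fst-201. The kallisto counts were 241.3 and 402.5 for Fst-202, 108.9 and 142.2 for Fst-205, and 34.0 and 11.8 for Fst-201. The order of the forms thus depends on the measure. In the RSEM values the short form held 38.5% of Fst TPM in replicate 1 and 44.2% in replicate 2, and the long form, Fst-201 and Fst-205 together, held 39.0% and 33.6%. By kallisto the short form held 36.3% and 42.9%, and the long form 60.5% and 50.1%. Nearly all of the long form was given to Fst-205, at 35.9% and 28.7% in the RSEM values, against 3.17% and 4.94% for Fst-201. RSEM also placed 22.5% and 19.1% on transcripts with no coding sequence, chiefly the retained-intron transcript Fst-203, which kallisto listed at 0 in both libraries. Of 31-base words, 711 are found in Fst-202 alone among the transcripts of the gene, 30 in Fst-205 alone and none in Fst-201 or Fst-203 alone.

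**Figure D2:**
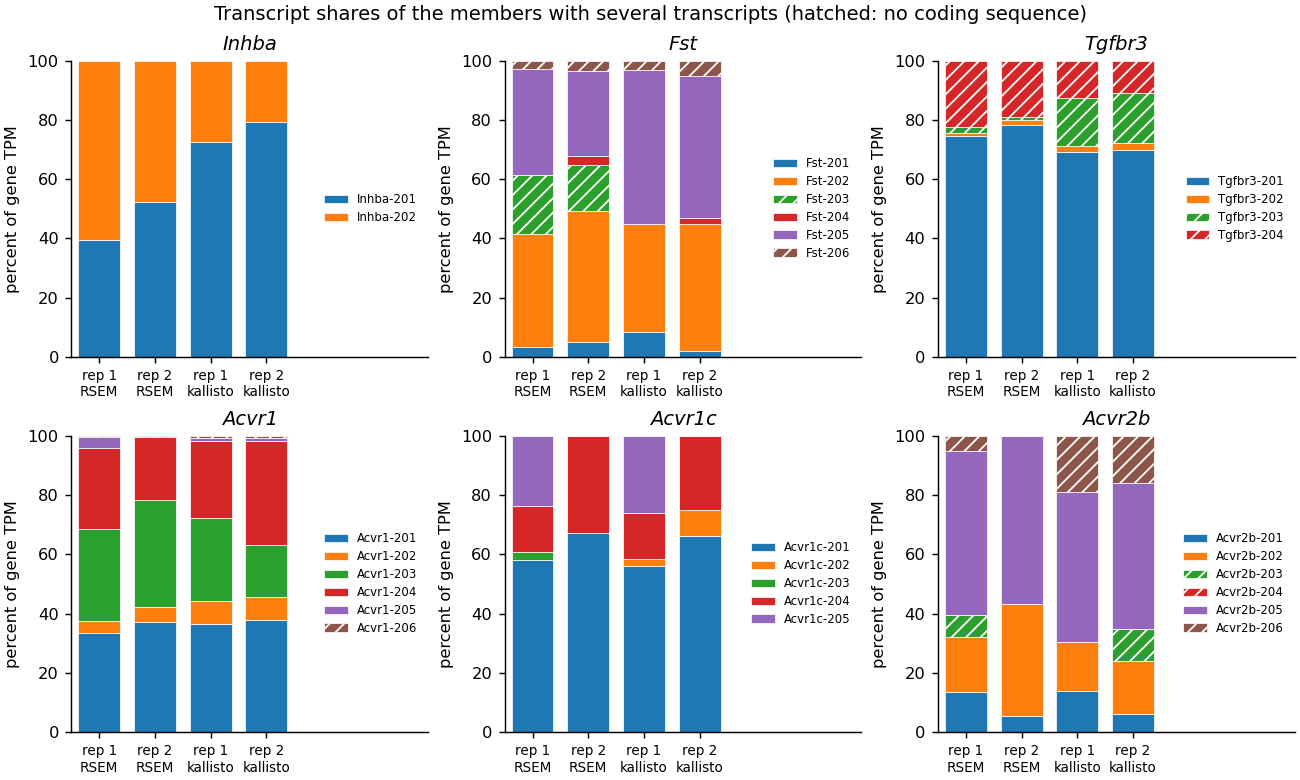
Share of each gene's TPM on its transcripts, in percent, for 6 genes with several transcripts; each bar is 1 library under 1 quantification, and hatched segments carry no coding sequence. The Fst bars differ between quantifications through Fst-203 and Fst-205, and the Acvr1c bars differ between libraries through Acvr1c-204 and Acvr1c-205.

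Tgfbr3 encodes betaglycan, the membrane proteoglycan that binds inhibin and strengthens its hold on the type II receptors; it also presents TGF-beta ligands. It was the most abundant of the 10 genes, at 42.8 TPM in replicate 1, with 38.8 TPM in replicate 2, or 40.8 ± 2.79 TPM (SD, n = 2), with rank 1178 of 22015. Its log2 ratio to Inha was 0.47 in replicate 1 and 0.74 in replicate 2, a mean of 1.52-fold. That ratio uses all Tgfbr3 transcripts, coding or not. The main coding transcript alone was at 31.97 and 30.37 TPM, against 30.78 and 23.19 TPM for Inha. By kallisto that transcript was at 44.5 and 41.4 TPM, against 48.0 and 36.6 TPM, so it lay below Inha in replicate 1. For the whole gene, the log2 ratio over the summed type II receptors, which share inhibin with betaglycan, was 2.65 ± 0.07, or 6.26-fold. The gene spans 183.1 kb of chromosome 5, from 107106570 to 107289629 on the minus strand. Its main coding transcript, of 17 exons, held 74.8% and 78.3% of its TPM in replicates 1 and 2. A retained-intron transcript held 22.4% and 19.1%, with 399.4 and 334.6 expected counts. By kallisto that share was 12.5% and 10.9%, while another transcript with no coding sequence, of 15 exons, held 16.1% and 17.0%. Within the gene the annotation places 3 further genes on the same strand, and 1 of them, Gm43422, shares 269 of the 6513 31-base words of Tgfbr3. Gm43422 had 171.7 and 138.3 expected counts.

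The type I receptors were headed by Acvr1, followed closely by Acvr1c and at some distance by Acvr1b. Acvr1, the receptor also named ALK2, which mainly serves bone morphogenetic proteins, was at 11.97 TPM in replicate 1, with 13.58 TPM in replicate 2. Acvr1b, or ALK4, the usual partner for activin, was at 2.97 and 2.42 TPM. Acvr1c, or ALK7, which serves activin B, nodal and some growth differentiation factors, was at 10.2 and 9.19 TPM. ALK4 was thus below ALK7 by a log2 ratio of -1.85 ± 0.10 (SD, n = 2), so that Acvr1c was 3.61-fold the higher, and the ratio was -1.85 by kallisto as well. The Acvr1c level sums its transcripts, among them the fragment Acvr1c-205, which both quantifications listed above 0 in replicate 1 alone. The longest transcript, Acvr1c-201, was at 5.91 and 6.18 TPM in replicates 1 and 2, against 2.97 and 2.42 TPM for Acvr1b. Acvr1 exceeded Acvr1b 4.76-fold, by a log2 ratio of 2.25 ± 0.34. Acvr1c and Acvr1 are neighbours on the minus strand of chromosome 2, from 58267453 to 58357895 and from 58388644 to 58567157, 30.7 kb apart with no protein-coding gene between them. Acvr1b lies on chromosome 15 from 101174067 to 101213684.

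Acvr1c is known for its high level in fat cells, and the adipocyte markers were present, all 4 of 4. They summed to 1376 TPM in replicate 1, with 1519 TPM in replicate 2, with Adipoq, the hormone adiponectin, at 84.9 and 85.6 TPM. Most of that sum came from Ucp1, at 723.6 and 861.0 TPM, and Cidea, at 395.8 and 377.8 TPM. The part of fat cells in the Acvr1c level was not tested.

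The Acvr1c level was also divided among transcripts that encode different proteins. The longest, Acvr1c-201 with 9 exons, was nearly level in the libraries, at 5.91 TPM in replicate 1, with 6.18 TPM in replicate 2. Acvr1c-204, which skips 240 bases of coding sequence and keeps the reading frame, was at 1.60 and 3.01 TPM, from 73.5 and 150.0 expected counts. The skipped stretch is shown in capitals below, with the joined bases of the shorter transcript after it. It encodes the segment that crosses the membrane, and its ends lie at 58287897 and 58315807 on the minus strand of chromosome 2 with the flanking bases included.
Acvr1c-201: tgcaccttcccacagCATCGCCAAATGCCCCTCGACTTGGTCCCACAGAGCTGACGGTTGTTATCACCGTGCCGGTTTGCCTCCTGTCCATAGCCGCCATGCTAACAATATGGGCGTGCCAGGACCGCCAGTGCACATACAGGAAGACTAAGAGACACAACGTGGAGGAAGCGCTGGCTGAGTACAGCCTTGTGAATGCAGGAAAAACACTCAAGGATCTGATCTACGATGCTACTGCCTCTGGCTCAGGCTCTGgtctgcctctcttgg
Acvr1c-204: tgcaccttcccacaggtctgcctctcttgg
No 31-base word is found in Acvr1c-204 alone among the transcripts of the gene. By kallisto Acvr1c-204 held 15.5% of Acvr1c TPM in replicate 1 and 25.0% in replicate 2, beside 15.7% and 32.8% in the RSEM values. A fragment of 392 bases, Acvr1c-205, took 23.6% in replicate 1 from 23.1 expected counts, and it was at 0 in replicate 2. The direction of the difference between the libraries depended on the measure: by TPM Acvr1c was 1.11-fold higher in replicate 1, whereas by counts the ratio was 0.944, with a counting interval of 0.886 to 1.01.

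Acvr1 has 4 transcripts with the same coding sequence of 1530 bases. They held 95.9% of its TPM in replicate 1 and 99.6% in replicate 2, so its isoforms differed almost wholly outside the coding sequence. Acvr1b has a single transcript, with 421 and 372 expected counts.

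The type II receptors, which bind the ligand first and are shared by activins, inhibins and several bone morphogenetic proteins, were lower than the sum of the type I receptors. Acvr2a was at 5.31 TPM in replicate 1, with 4.68 TPM in replicate 2. Acvr2b was at 1.77 and 1.30 TPM, from 137 and 120 expected counts. Acvr2a exceeded Acvr2b by a log2 ratio of 1.72 ± 0.19 (SD, n = 2), or 3.29-fold, and by 1.60 ± 0.01 in the kallisto values. The type I receptors summed to 25.1 and 25.2 TPM and the type II receptors to 7.08 and 5.98 TPM, a 3.87-fold difference.

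Acvr2a lies on chromosome 2 from 48814109 to 48903269 on the plus strand. Its end overlaps Orc4, a replication gene on the other strand at 16.6 and 14.2 TPM, and 416 of its 5685 31-base words occur there too. Acvr2b lies on chromosome 9 from 119402118 to 119434995, and its coding transcripts differ in internal stretches of the coding sequence. In the RSEM values Acvr2b-205 led with 55.4% of TPM in replicate 1 and 56.9% in replicate 2, followed by Acvr2b-202 with 18.6% and 37.7%. By kallisto Acvr2b-205 also led, with 50.7% and 49.5%, while Acvr2b-202 held 16.7% and 18.2% and the retained-intron transcript Acvr2b-206 held 18.8% and 15.9%. The longest coding sequence, that of Acvr2b-202, holds 24 bases that Acvr2b-201 lacks, shown here in capitals within 119428062 to 119428239 of the plus strand.
Acvr2b-202: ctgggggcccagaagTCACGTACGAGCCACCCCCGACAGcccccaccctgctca
It also holds 72 bases that Acvr2b-205 lacks, within 119428339 to 119428440.
Acvr2b-202: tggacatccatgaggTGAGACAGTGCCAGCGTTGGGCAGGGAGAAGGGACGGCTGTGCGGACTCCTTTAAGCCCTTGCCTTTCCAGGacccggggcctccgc
With at most 98.9 expected counts on any Acvr2b transcript in either library, these shares rest on few reads.

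Ordered by mean TPM over all transcripts of each gene, coding or not, the genes ran Tgfbr3, Inha, Acvr1, Acvr1c, Fst, Acvr2a, Acvr1b, Acvr2b, Inhbb and Inhba. Of the 9 pairs of neighbours in this order, the ranges over the libraries did not overlap in 8, and in 7 they did not overlap by kallisto either. The exceptions were Inhbb and Inhba, and Acvr1c and Fst, whose RSEM ranges were only 0.0900 TPM apart and whose kallisto ranges overlapped. No 31-base word is shared between any of the 10 genes, so no stretch of that length is ambiguous between them.

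For these genes the libraries lay within 2-fold of each other. None of the 8 whose mean reached 1 TPM lay over 2-fold apart, beside 5.89% of 12535 protein-coding genes at that level, 2.52% being higher in replicate 1 and 3.37% in replicate 2. Their absolute log2 ratio ran between 0.14 and 0.45, with a median of 0.24, against 0.16 over all genes. In 6 of the 8 the TPM was higher in replicate 1, and over all genes this held for 62.5%. The counting interval of the ratio left out 1 for 6 of the 8, beside 46.8% of all genes. The 6 were Inha, Acvr1, Acvr1b, Acvr2a, Fst and Tgfbr3. These intervals use the scaling to TPM alone. With TMM factors the log2 count ratio was 0.03 for Tgfbr3, 0.08 for Acvr2a and -0.15 for Acvr1c, against 0.10, 0.14 and -0.08 here. Which intervals leave out 1 may thus depend on the scaling, and intervals under other scalings were not computed. The credibility intervals of TPM did not overlap for Inha, Acvr1b, Fst and Tgfbr3, 4 of the 8, and for 20.5% of all genes.

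**Figure D3:**
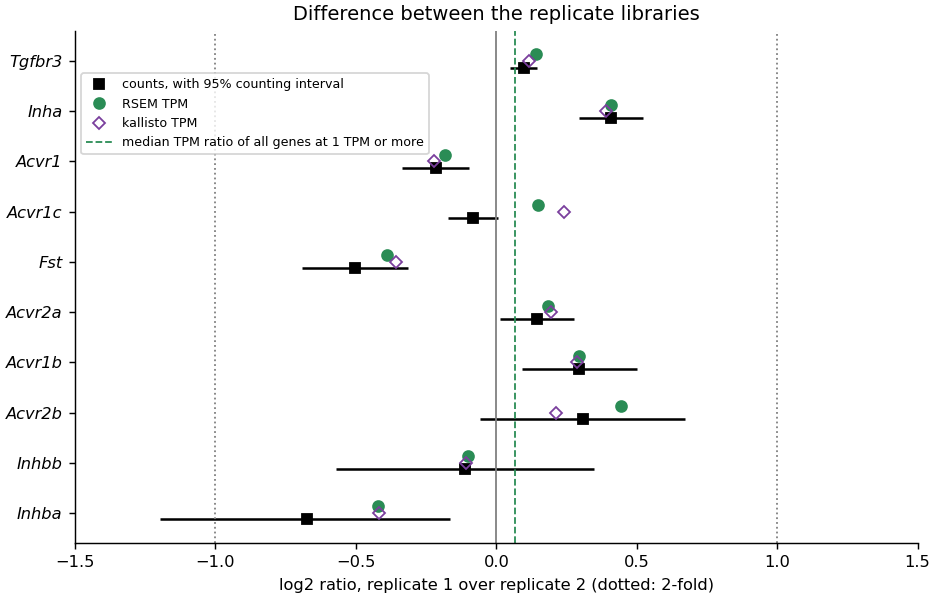
log2 ratio of replicate 1 over replicate 2 for each of the 10 genes. Squares with lines are count ratios with 95% counting intervals, circles are RSEM TPM ratios, diamonds kallisto TPM ratios, dotted lines mark 2-fold, and the dashed line is the median TPM ratio of all protein-coding genes at 1 TPM or more. Inha and Fst lie on opposite sides of 0 by every measure shown, and the measures of Acvr1c lie on both sides.

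Markers of several cell types also differed between the libraries. Beside the higher Inha of replicate 1, the 3 X-zone markers, of an inner cortical layer of young mice, were higher in replicate 2. They summed to 361.2 TPM in replicate 1 and 718.1 TPM in replicate 2, mostly from Akr1c18 at 348.2 and 700.4 TPM. The 5 cortical markers summed to 3326 and 3716 TPM. Of those 5, 3 were higher in replicate 2 and 2, Mc2r and Cyp11b1, in replicate 1. The 3 zona glomerulosa markers summed to 219.7 and 206.2 TPM, with 2 of them higher in replicate 1 and 1 in replicate 2. The 6 capsule and mesenchyme markers summed to 236.2 TPM in replicate 1, with 190.0 TPM in replicate 2. Of those 6, 5 were higher in replicate 1 and 1, Rspo3, in replicate 2, at 2.39 and 2.57 TPM. Col1a1 made up much of the sum, at 131.6 and 96.7 TPM. The 3 endothelial markers summed to 146.9 and 125.2 TPM. The 4 lymphocyte markers were higher in replicate 1, 6.89-fold by their sum. Beside the higher Fst of replicate 2, the hepatocyte markers were higher there, 4 of 4. Their part in the Inha and Fst differences was not tested.

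Further genes of the pathway were read from a list of 46, of which 31 reached 1 TPM in both libraries. The 5 highest were the furin convertase Furin at 37.3 ± 0.06 TPM (SD, n = 2), Fstl1, a secreted relative of follistatin, at 35.3 ± 4.32, the convertase Pcsk5 at 32.1 ± 1.31, the endothelial co-receptor Eng at 28.2 ± 0.52 and Pmepa1, a membrane protein that TGF-beta signalling induces and that restrains it, at 23.5 ± 11.3. Convertases cut the precursors of inhibin and activin subunits, and all 3 listed were detected, with Pcsk6 at 8.68 ± 0.03 TPM. Fstl3, the other activin-binding follistatin relative, was at 1.46 TPM in replicate 1, with 1.73 TPM in replicate 2.

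All 8 Smad genes were detected. Smad4, the partner of every receptor-activated Smad, stood at 19.8 TPM in replicate 1, with 18.5 TPM in replicate 2. Smad2 and Smad3, which carry the activin signal, were at 19.0 and 18.6 TPM and at 8.77 and 7.14 TPM, so Smad2 was the higher in both libraries. Smad7, an inhibitory Smad that activin and TGF-beta induce, was at 6.77 and 5.86 TPM. Of 8 other receptors 5 were detected, from Tgfbr1 at 7.15 ± 0.37 TPM (SD, n = 2) up to Eng. Tgfbr2, the TGF-beta type II receptor, was at 22.5 and 16.8 TPM and Bmpr2 at 16.5 and 17.4 TPM. Of 9 regulators and targets 7 were detected, from Smurf1, a ubiquitin ligase, at 4.91 ± 0.36 TPM (SD, n = 2) up to Pmepa1.

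**Figure D4:**
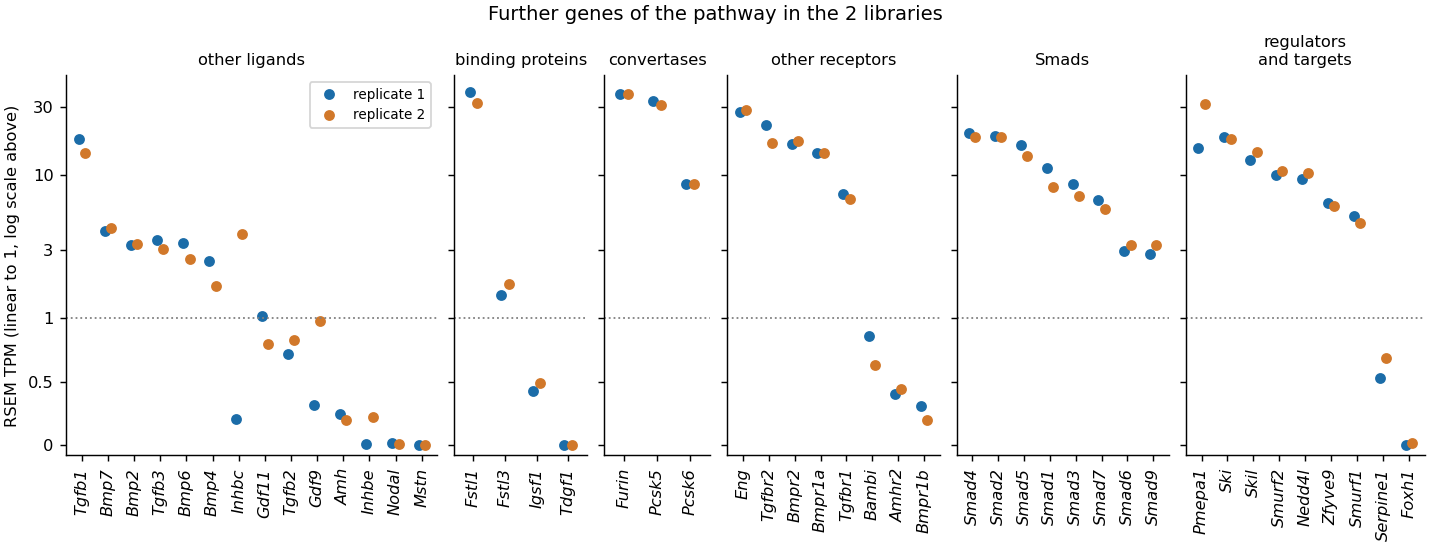
RSEM TPM of the 46 further pathway genes in both libraries, by role; the axis is linear up to 1 TPM and logarithmic above, and the dotted line marks 1 TPM. Inhbc and Pmepa1 are the genes over 2-fold apart among those whose mean reached 1 TPM, both higher in replicate 2.

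Of 14 other ligand genes 6 were detected, from Tgfb1 at 16.2 ± 2.74 TPM (SD, n = 2) down to Bmp4 at 2.09 ± 0.59. The myostatin gene Mstn had 0 counts in both libraries by either quantification. The nodal co-receptor Tdgf1 had 0 RSEM counts in both, while kallisto listed it at 0 in replicate 1 and at 0.219 TPM in replicate 2. A count of 0 in the RSEM table allows up to 9.1e-06% of counts in replicate 1 and 8.27e-06% in replicate 2. Of the 32 pathway genes whose mean reached 1 TPM, 2 lay over 2-fold apart, beside the same 5.89% of all genes, and both were higher in replicate 2. Pmepa1 was at 15.6 TPM in replicate 1, with 31.5 TPM in replicate 2, a log2 ratio of -1.02. It fell just inside 2-fold by kallisto, at -0.99, with spike-in scaling, at -0.94, and with 1 TPM added to each value, at -0.98.

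Inhbc, the beta C subunit, known as a liver gene, was at 0.210 TPM in replicate 1, with 3.88 TPM in replicate 2, from 12 and 243 expected counts. It was thus 18.5-fold the higher in replicate 2, while the hepatocyte markers were 17.6-fold the higher by their sum. The Inhbc level was 0.122% of that of Alb, the serum albumin of hepatocytes, in replicate 1 and 0.126% in replicate 2, and the part of liver RNA in it was not tested. Inhbe, the beta E subunit of liver, had 1 and 41 expected counts. In replicate 2 Inhbc therefore exceeded Inhba and Inhbb, at 0.630 and 0.600 TPM, whereas in replicate 1 it lay below both.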

How the data were processed

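Per the deposited file lists, the authors quantified each library on mm10 with the GENCODE M21 annotation. The deposited gene and transcript tables hold expected counts and TPM from transcriptome alignments, with the column names of RSEM, per the file headers. The deposited posterior mean TPM and its credibility bounds are a signal with no fixed total, at a level the file headers do not give. A second quantification of the read files, with the column names of kallisto per the file headers, gave estimated counts and TPM, which were summed to genes. The deposited percent of gene TPM per transcript was recomputed from TPM. Aligner and tool versions: not given in the sources used here. Reads of the CAST/EiJ allele were quantified on the reference, and the effect was not measured. The library kit is directional, per the labels; whether counting used strand is not stated, so reads of Acvr2a and Orc4 where they overlap may not be told apart.

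The 10 genes and the further lists were chosen with earlier results of these data known; all 46 pathway genes were matched by symbol. Named genes were the 10, the 5 highest pathway genes, those over 2-fold apart, and Inhbc, Inhbe, Fstl3, Smad2, Smad3, Smad4 and Smad7, with the other detected pathway genes by level or range; Mstn, Tdgf1 and Gdf9 were added after their values were seen. Both libraries form 1 group, so no test was run. A chi-square of their counts gave 58.7 per degree of freedom, so they were kept as 2 samples. Ratios are replicate 1 over replicate 2. Count ratios used rounded expected counts, multiplied by 1.08, the median ratio of TPM to count ratios over genes of equal effective length, with exact binomial intervals for counting error only; they were tested on simulated counts. Transcript sequences and 31-base words came from GENCODE M21. Python 3.11.15, pandas 2.3.3, numpy 2.4.6, scipy 1.17.1, edgeR 4.0.16 and DESeq2 1.42.0 (scaling factors alone) were used. Alternatives were kallisto, posterior means, other thresholds, other scalings, a pseudocount of 1 TPM and leaving out a library.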

Additional observations from a re-analysis of the deposited data

How the results depend on the processing

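The count of 8 detected genes became 9 at a threshold of 0.5 TPM and 7 at 2 TPM, and stayed 8 under the other alternatives. That of 31 pathway genes became 35 at 0.5 TPM, 29 at 2 TPM and 34 by kallisto. It was 32 with posterior means and with either library left out. No alternative put any of the 10 genes over 2-fold apart. The log2 ratio of Inhbb to Inhba ran between -0.070 and 0.25 when a library was left out, and so turned. That of Acvr2a to Acvr2b was 1.42 with posterior mean TPM, and that of Fst to the beta subunits was 2.93 by kallisto. Leaving out a library gave 4.24 to 4.90 for alpha over beta subunits and 0.47 to 0.74 for Tgfbr3 over Inha, and 1.58 to 1.85, -1.93 to -1.78 and 2.75 to 2.89 for Acvr2a over Acvr2b, Acvr1b over Acvr1c and Fst over beta subunits. The 2 pathway genes over 2-fold apart became 1 by kallisto, with spike-in scaling, with a mean of at least 5 TPM and with 1 TPM added, and 4 with no filter, which added Inhbe and Gdf9; the cause was not tested beyond these settings. The replicate difference of Acvr1c turned to -0.15 with TMM factors and to -0.16 with DESeq2 size factors. The other 9 genes kept their sign under all 5 alternatives. That of Tgfbr3, 0.14 by TPM, was 0.03 with TMM factors and with DESeq2 size factors, and 0.22 with spike-in scaling. The TPM balance of short over long follistatin, an alternative chosen after seeing the data, was 0.19 ± 0.30 on the log2 scale (SD, n = 2). The long form was slightly ahead in replicate 1 and the short form ahead in replicate 2. By kallisto TPM the balance was -0.48. Kallisto TPM were 1.52-fold the RSEM values over all genes by median, and 1.27-fold to 1.75-fold for these 10. The median log2 ratio of all genes was 0.07 by TPM, -0.01 with TMM factors and 0.14 with spike-in scaling. Inhba, Inhbb and Acvr2b rest on at most 137 expected counts per library. No paired analysis was possible because there is only 1 group.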
